A study of Mus musculus with 14 samples.

Results

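The 9 genes described here encode core parts of the Nodal and Activin signalling pathway: the ligands Nodal and Gdf3, the co-receptor Tdgf1, the receptors Acvr1b and Acvr2b, the nuclear co-factor Foxh1 and the inhibitors Lefty1, Lefty2 and Smad7. They were chosen by gene symbol from the 24054 genes of the deposited tables, with earlier results of these data known. All 9 passed the filter on low counts in both fits. RNA was measured by low-input sequencing in 14 libraries of mouse embryonic stem cells and their derivatives, sorted by fluorescence. A second set of 30 pathway genes, listed by role, was used for comparison.

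The control groups (con) carried Foxa2-Venus-KO on 1 allele, in which the reporter Venus replaces the Foxa2 coding region, and an intact second allele. The knockout groups (ko) carried it on both alleles, so Venus marks cells that have switched on the Foxa2 locus and the controls are themselves heterozygous for the loss. d0con and d0ko (n = 2 each) were grown overnight on red-fluorescent, mitomycin-treated mouse embryonic fibroblasts (MEFs) without leukaemia inhibitory factor (LIF) and sorted as Cherry-negative cells. d3con and d3ko (n = 3 each) were kept for 3 days on feeder cells that secrete Wnt3a, with Activin A at 12 ng/ml, and sorted as Venus-positive cells. Both day 3 groups therefore received a ligand of the pathway from the medium, and day 3 differed from day 0 in medium, feeder cells and sort as well as in time. Each genotype was represented by 2 clones, C59 and C63 for con and C9 and C17 for ko, and replicates 1 and 3 at day 3 were the same clone. The third pair, d2-FVFn and d2-FVFp (n = 2 each), came from the single TetON-Foxa2-Venus line T119, in which doxycycline drives a Foxa2-Venus fusion. These cells had 40 ng/ml doxycycline for 48 h in LIF and serum without feeder cells, and were sorted as Venus-negative (FVFn) or Venus-positive (FVFp), so both groups had received the drug. The labels did not say that replicates were separate cultures, and p-values then measure only the spread between these libraries, which may be technical.

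Nodal and Activin bind pairs of type I and type II receptor kinases, which phosphorylate Smad2 and Smad3. These enter the nucleus with Smad4 and act on target genes with partners such as Foxh1. Nodal needs a co-receptor of the Cripto family, which Tdgf1 encodes, whereas Activin does not. Lefty1 and Lefty2 are both targets of the pathway and secreted blockers of Nodal, and this feedback shapes the primitive streak, from which mesoderm and definitive endoderm arise.

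Lefty1 (chr1:180935022-180938401, GRCm38) and Lefty2 (chr1:180893108-180899107) are neighbouring protein-coding paralogs, and a stretch of each is shown because the likeness of the genes limits how far reads can be told apart. Their coding sequences, 1104 bases each, were identical at 1014 positions (91.8%), with 6 identical runs of at least 50 bases. A read of 50 bases had the same sequence in the other gene at 17.9% of start positions in Lefty1 and at 11.6% in Lefty2, against 11.2% and 7.21% for 75-base reads. The lines that follow give the 60-base stretch where the genes differ most, in exon 1 at coding positions 34 to 93, with the 18 differing bases in capitals (Lefty1 chr1:180935143-180935202, Lefty2 chr1:180893217-180893276, plus strand, from GENCODE transcripts). A read from here can be assigned to its gene.
Lefty1: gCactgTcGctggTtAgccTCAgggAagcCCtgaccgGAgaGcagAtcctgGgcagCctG
Lefty2: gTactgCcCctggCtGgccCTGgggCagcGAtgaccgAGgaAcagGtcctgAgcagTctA

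Library totals ranged from 14142788 to 27278237 expected counts. Foxa2, the targeted gene, stood at 0.07 to 0.19 TPM (transcripts of a gene as a share of all transcripts, scaled by length and library total) in d0con, d0ko and d3ko, at 34.8 to 58.6 TPM in d3con, at 2.01 and 2.99 TPM in d2-FVFn and at 159.8 and 168.6 TPM in d2-FVFp, so no library went against its label. The d3ko libraries stood apart from each other. The summed TPM of 6 pluripotency markers was 15430.6, 2668.0 and 17364.0 in d3ko replicates 1, 2 and 3. It was 561.5 to 984.8 in d3con and 13786.6 to 15663.0 at day 0. Most of the d3ko sums was Dppa5a, at 14200.1, 1866.5 and 15542.9 TPM. Sox2, Klf4 and Zfp42 were likewise far lower in replicate 2 than in replicates 1 and 3. Pou5f1 was at 522.5, 500.9 and 943.7 TPM and Nanog at 254.5, 240.1 and 345.1 TPM, with replicates 1 and 2 close together. All d3ko values of Pou5f1 lay below its day 0 range of 1335.3 to 1467.3 TPM. The summed TPM of 6 endoderm markers was 258.6 to 779.2 in d3con and 31.5 to 113.9 in d3ko, although both groups are labelled endoderm cells. Sox17, a defining endoderm gene, was at 62.4 to 130.5 TPM in d3con and at 0.76 to 2.10 TPM in d3ko. The sum of 6 primitive streak and mesoderm markers was highest in the libraries numbered 2, at 182.2 in d3con and 333.8 in d3ko, against 29.1 to 72.0 in the other day 3 libraries. Markers of fibroblast feeder cells summed to 52.7 to 304.3 TPM in d3con, 117.3 to 365.7 in d3ko, 11.8 and 14.2 in d0con and 37.4 and 135.2 in d0ko, so the day 0 genotypes did not overlap. In such bulk libraries fewer cells of a type and less RNA per cell cannot be told apart. The effective lengths in the tables of the first replicates of d3con and d3ko fit 75-base reads, and those of all other libraries 50-base reads. The study's methods name only the shorter length, so the longer one is an inference from these tables.

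Of the 9 genes, 5 rose and 2 fell from d0con to d3con, where 35.2% of 13899 genes tested were called (20.6% higher and 14.6% lower). Lefty1, Lefty2, Foxh1, Acvr2b and Acvr1b rose, and Gdf3 and Smad7 fell. From d0ko to d3ko only Foxh1 rose and only Gdf3 fell, against a background of 17.3% (11.6% higher and 5.72% lower). Between the genotypes at day 3, Lefty1 and Lefty2 were lower and Gdf3 and Smad7 higher in d3ko, against a background of 8.26% (4.75% higher and 3.51% lower). After Foxa2 induction Lefty2 alone passed the threshold, and it rose, against a background of 8.43% (6.96% higher and 1.47% lower). A call means an adjusted p under 0.05 in edgeR's quasi-likelihood test with Benjamini-Hochberg adjustment and a change of more than 2-fold. The median log2 fold change of the 9 genes was 1.1, 0.17, -0.37 and 0.00 in these comparisons, against 0.07, 0.07, 0.02 and 0.01 over all genes tested. The comparison of d3ko with d3con shares its libraries with both comparisons of day 3 with day 0, so their values are not independent.

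**Figure D1:**
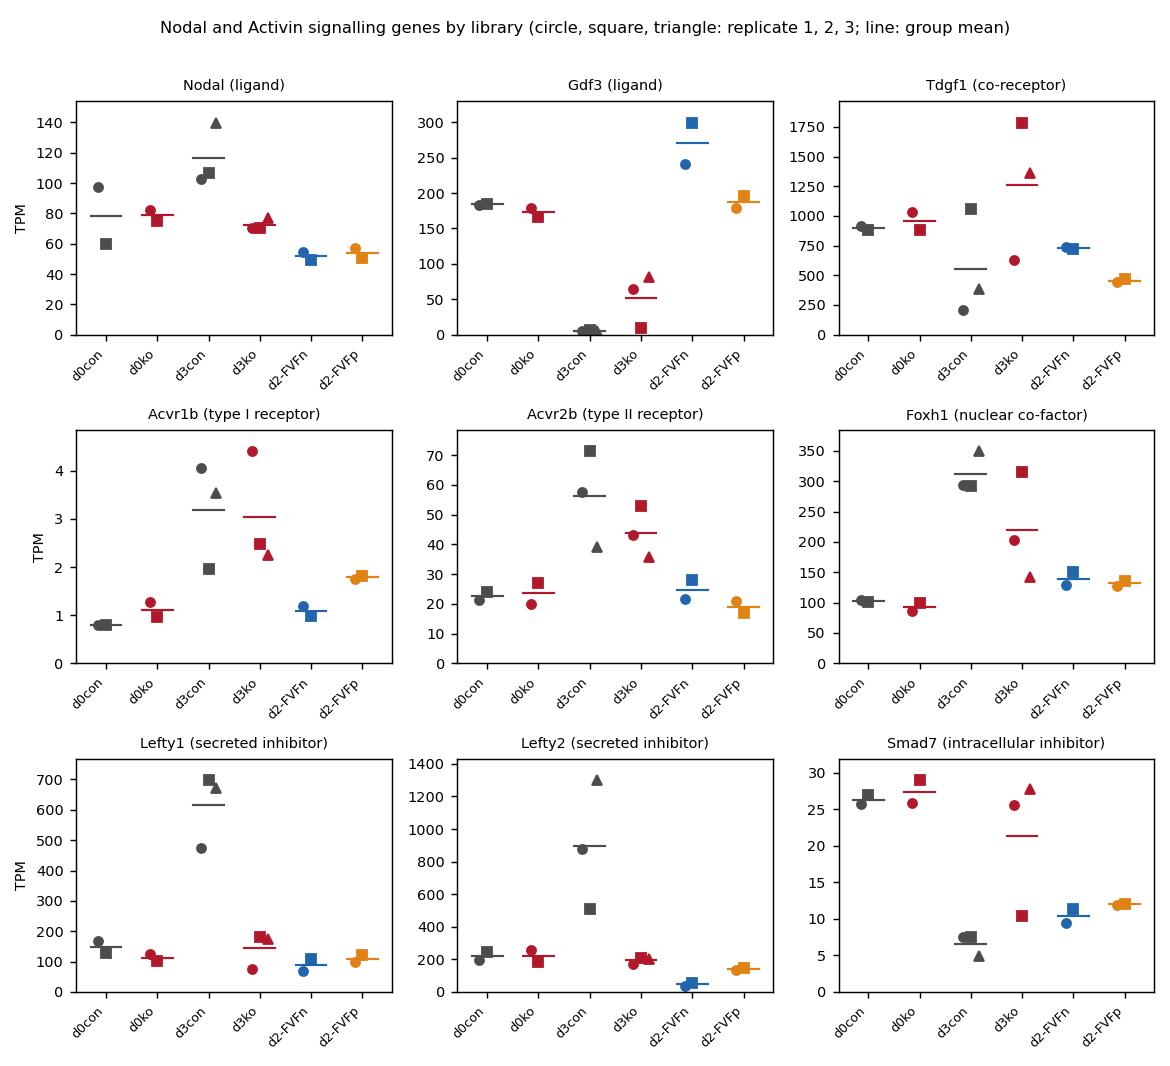
TPM (linear axis from 0) of each gene in the 14 libraries, with points for libraries, marker shapes for replicate numbers and lines for group means. The 3 d3con libraries lie above all other libraries for Lefty1 and Lefty2 (at least 475.0 and 510.6 TPM), while Gdf3 stays between 4.59 and 6.69 TPM in them.

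**Figure D2:**
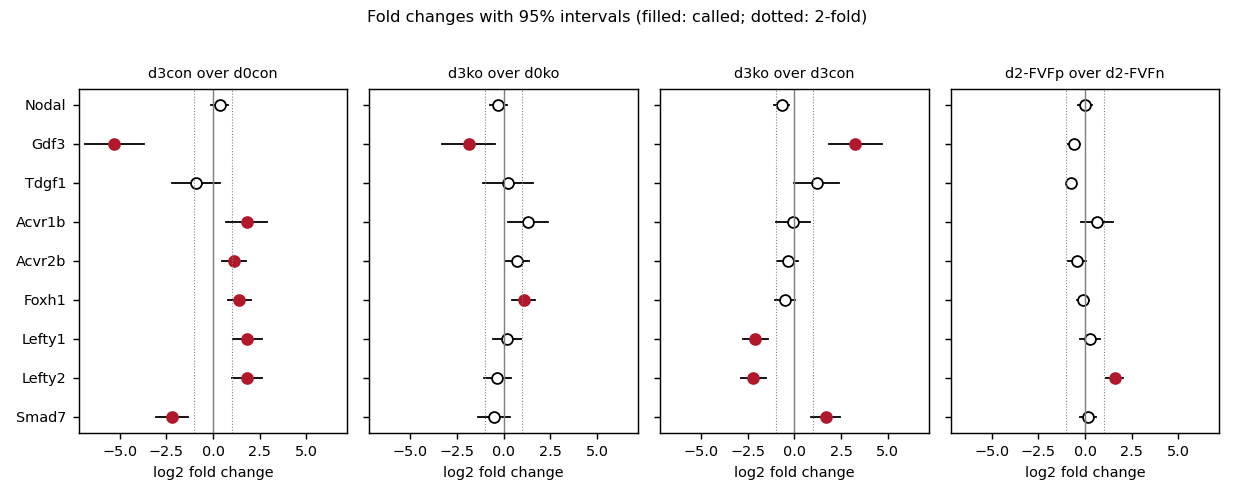
Log2 fold change (points) with its 95% interval (lines) for the 9 genes in 4 comparisons, filled where the gene was called and with dotted lines at a 2-fold change. Lefty1 and Lefty2 lie at 1.83 and 1.81 from d0con to d3con and at -2.09 and -2.20 in d3ko against d3con.

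Nodal (chr10:61417972-61425338), the ligand after which the pathway is named, was at 97.2 and 59.7 TPM in d0con, 82.3 and 75.1 TPM in d0ko, 102.6, 106.8 and 139.95 TPM in d3con and 70.1, 70.2 and 76.7 TPM in d3ko. All 3 d3con libraries lay above every other library of the differentiation series, and the other 3 groups overlapped. The change from d0con to d3con was 0.36 on the log2 scale (edgeR adjusted p = 0.164, SE 0.20), with the pair of d0con libraries wide apart. In d3ko against d3con the log2 fold change was -0.69 (edgeR adjusted p = 0.0441, SE 0.18). This passed the p threshold but was under 2-fold, so it was not called. From d0ko to d3ko the value was -0.29 (edgeR adjusted p = 0.295, SE 0.20).

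Gdf3 (chr6:122605403-122610087), a Nodal-related ligand of pluripotent cells, was at 183.8 and 185.2 TPM in d0con and at 178.9 and 166.4 TPM in d0ko. It was at 4.59, 6.69 and 5.08 TPM in d3con and at 64.5, 9.72 and 82.1 TPM in d3ko. Every d3ko library was thus above every d3con library and below every day 0 library, with replicate 2 close to d3con. Gdf3 fell by 5.29 on the log2 scale from d0con to d3con (edgeR adjusted p = 0.000559, SE 0.70), the largest change among the 9 genes, and kept its call in all 15 alternatives. It fell by 1.89 from d0ko to d3ko (edgeR adjusted p = 0.0475, SE 0.62). With replicate number as a block this became -2.27 (edgeR adjusted p = 0.0553), whereas a block for clone kept the call. The call was lost in 8 of 15 alternatives, among them that without d3ko replicate 1 (-2.08, edgeR adjusted p = 0.0750). Without d0ko replicate 1 or 2 the log2 fold change was -1.82 or -1.96, with 1 library left in d0ko. Gdf3 was higher in d3ko than in d3con by 3.27 (edgeR adjusted p = 0.0167, SE 0.63). That call was lost in 5 of 16 alternatives, among them the fit without d3con replicate 1 (3.17, adjusted p = 0.0726) and without d3con replicate 3 (3.19, adjusted p = 0.0803).

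The summed pluripotency markers, made up mostly of Dppa5a in d3ko, moved with Gdf3 at day 3. In d3ko against d3con 4 of the 6 markers were higher and none lower, where 4.75% of all genes were called higher and 3.51% lower. None of the 6 was at 0 in any library. Replicate 2 was the lowest of the d3ko libraries both for Gdf3 and for the marker sum. From d0con to d3con 5 of the 6 markers fell, and from d0ko to d3ko none was called, where 14.6% and 5.72% of all genes were called lower. The part of pluripotent cells in the Gdf3 values was not tested.

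Tdgf1 (chr9:110939608-110946158), the Cripto co-receptor, was the most abundant of the 9 genes in every group but d3con, per transcript length. It was at 914.9 and 884.7 TPM in d0con and at 1032 and 884.3 TPM in d0ko, and the day 3 libraries spread more widely. The values were 211.7, 1059.9 and 380.8 TPM in d3con and 625.0, 1786.7 and 1359.3 TPM in d3ko, so replicate 2 was the highest library of both groups and the groups overlapped. None of the differentiation or genotype comparisons was called. The log2 fold change was -0.93 from d0con to d3con (edgeR adjusted p = 0.199, SE 0.58) and 1.2 in d3ko against d3con (edgeR adjusted p = 0.179, SE 0.53). Both values turned on d3con replicate 2, the control library of clone C63. Without it Tdgf1 fell by 1.81 from d0con to d3con (edgeR adjusted p = 0.00958) and was higher by 2.08 in d3ko (edgeR adjusted p = 0.0194). The libraries numbered 2 also had the highest summed primitive streak and mesoderm markers, with T, a primitive streak gene, at 130.6 TPM in d3con and 212 TPM in d3ko against 11.4 to 55.7 TPM in the others, and the part of such cells was not tested. A 50-base read had the same sequence in the pseudogene Tdgf1-ps1 at 12.5% of Tdgf1 positions, and the values are uncertain to that extent.

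**Figure D3:**
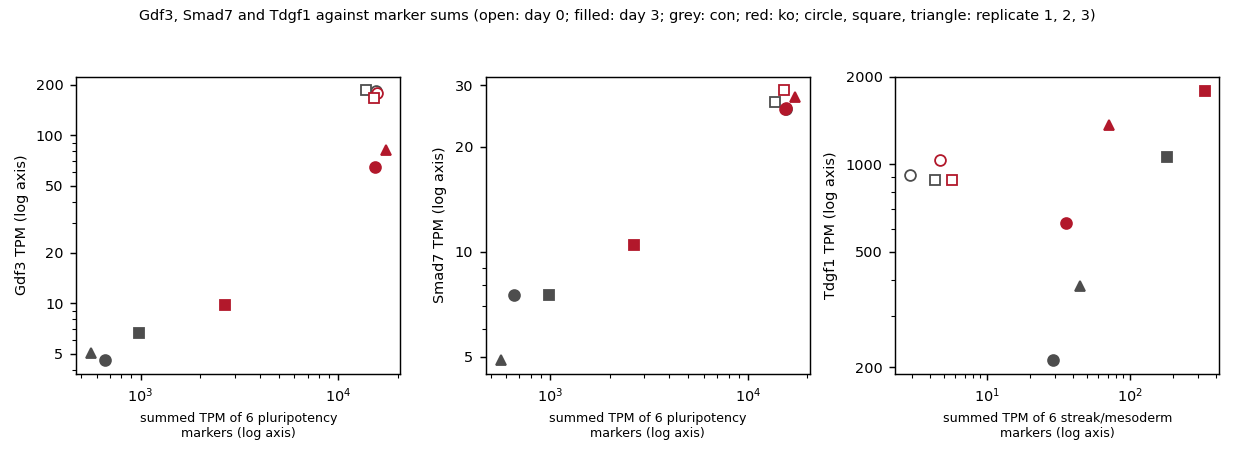
TPM of Gdf3, Smad7 and Tdgf1 in the day 0 (open) and day 3 (filled) libraries against the summed TPM of 6 pluripotency or 6 primitive streak and mesoderm markers, both on log axes, with con in grey and ko in red. The d3ko library numbered 2 (9.72 TPM of Gdf3 and 10.45 TPM of Smad7) lies between d3con and the other d3ko libraries.

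Both receptors rose from d0con to d3con, and neither was called between the genotypes at day 3. Acvr2b (chr9:119401583-119442148), a type II receptor, was at 21.4 and 24.1 TPM in d0con and at 20.03 and 27.16 TPM in d0ko. At day 3 it was at 57.7, 71.3 and 39.3 TPM in d3con and at 43.1, 52.9 and 35.6 TPM in d3ko, above all day 0 libraries in both genotypes. The log2 fold change was 1.1 from d0con to d3con (edgeR adjusted p = 0.0107, SE 0.28) and 0.72 from d0ko to d3ko (edgeR adjusted p = 0.0777, SE 0.28), which was not called. The first call was lost without either d0con library (adjusted p = 0.0811 and 0.0514) and fell under 2-fold without d3con replicate 2 (0.91).

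Acvr1b (chr15:101174072-101213684), the type I receptor of Nodal and Activin, was the scarcest of the 9 genes in every group, per transcript length. It was at 0.80 TPM in both d0con libraries, 1.27 and 0.96 TPM in d0ko, 4.07, 1.96 and 3.53 TPM in d3con and 4.41, 2.47 and 2.25 TPM in d3ko. All day 3 libraries lay above all day 0 libraries, and the genotypes overlapped at day 3. Acvr1b rose by 1.80 on the log2 scale from d0con to d3con (edgeR adjusted p = 0.0131, SE 0.49), and the value from d0ko to d3ko was 1.28 (edgeR adjusted p = 0.0665, SE 0.47). The first call was lost without either d0con library (adjusted p = 0.0808 and 0.0776), and the second value was called without d3ko replicate 3 (1.47, adjusted p = 0.0492). In d3ko against d3con the difference was -0.08 for Acvr1b (95% interval -0.98 to 0.82) and -0.37 for Acvr2b (-0.92 to 0.19), so a 2-fold difference lay outside both intervals. Of the 7 feeder cell markers, 4 were called higher in d3con against d0con, where 20.6% of all genes were. In d3ko against d0ko 1 of the 7 was called higher, near the 11.6% of all genes. There Dcn (-2.63) and Postn (-0.86) had negative log2 fold changes and the rest positive ones, and d0ko started from higher sums than d0con. The part of feeder cells in the receptor values was not tested.

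Foxh1 (chr15:76667829-76671614), a forkhead co-factor that acts with Smad2 and Smad3 on target genes, was at 104.3 and 100.8 TPM in d0con and at 86.3 and 99.6 TPM in d0ko. It was at 294.5, 291.5 and 349.6 TPM in d3con and at 203.2, 315.1 and 142.9 TPM in d3ko. All day 3 libraries exceeded all day 0 libraries, and d3ko spread over a wider range than d3con. Foxh1 rose by 1.39 from d0con to d3con (edgeR adjusted p = 0.00319, SE 0.28) and by 1.07 from d0ko to d3ko (edgeR adjusted p = 0.0183, SE 0.27). The second call was lost in 6 of 15 alternatives. Without d0ko replicate 1 or 2 the edgeR adjusted p was 0.136 or 0.0875, and without d3ko replicate 2 the change was 0.74. The difference of d3ko from d3con was -0.51 (95% interval -1.04 to 0.02, edgeR adjusted p = 0.199).

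The secreted inhibitors had the smallest adjusted p of the 9 genes between the genotypes at day 3. Lefty1 was at 168.7 and 129.2 TPM in d0con, 124.4 and 101.9 TPM in d0ko, 475.0, 698.9 and 671.6 TPM in d3con and 76.9, 182.1 and 173.6 TPM in d3ko. Lefty2 was at 196.5 and 244.4 TPM in d0con, 258.5 and 181.5 TPM in d0ko, 877.1, 510.6 and 1302.2 TPM in d3con and 172.3, 210.3 and 204.2 TPM in d3ko. For both genes every d3con library exceeded every other library, and the d3ko libraries overlapped with day 0. Lefty1 rose by 1.83 on the log2 scale from d0con to d3con (edgeR adjusted p = 0.00250, SE 0.34), and Lefty2 rose by 1.81 (edgeR adjusted p = 0.00273, SE 0.35). From d0ko to d3ko the changes were 0.17 for Lefty1 (95% interval -0.56 to 0.90) and -0.34 for Lefty2 (-1.07 to 0.39), and neither was called.

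Lefty1 was lower in d3ko than in d3con by a log2 fold change of -2.09 (edgeR adjusted p = 0.00986, SE 0.30) and Lefty2 by -2.20 (edgeR adjusted p = 0.00938, SE 0.30). With the counts of both genes summed, so that shared reads did not matter, the difference was -2.17 (edgeR adjusted p = 0.00510, SE 0.24). The calls held without any single library, with log2 fold changes of -2.28 to -1.80 for Lefty1 and -2.48 to -1.88 for Lefty2. They were lost without the 75-base libraries (-1.94, adjusted p = 0.0556, and -2.12, adjusted p = 0.126) and with the libraries of 1 clone summed (-2.02, adjusted p = 0.0568, and -2.03, adjusted p = 0.105), where 0.00734% and 0.00732% of all genes were called and 2 samples a group were left. In d3ko against d3con 3 of 6 endoderm markers were lower, none of the 6 was higher, and 4 of 6 pluripotency markers were higher. Of all genes 3.51% were called lower and 4.75% higher there. The part of such cells in the Lefty values was not tested. The call of Lefty1 was also lost in the fit of only these 2 groups (edgeR adjusted p = 0.0515) and in DESeq2 against a 2-fold change (adjusted p = 0.0894).

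Smad7, the intracellular inhibitor that blocks type I receptors, was at 25.7 and 26.9 TPM in d0con and at 25.8 and 29.0 TPM in d0ko. It was at 7.49, 7.49 and 4.89 TPM in d3con and at 25.6, 10.45 and 27.8 TPM in d3ko. Replicates 1 and 3 of d3ko, both of clone C9, lay at the day 0 level, and replicate 2, of clone C17, lay nearer to d3con. Smad7 fell by 2.18 from d0con to d3con (edgeR adjusted p = 0.00175, SE 0.38) and kept that call in all 15 alternatives. The value from d0ko to d3ko was -0.52 (95% interval -1.37 to 0.32, edgeR adjusted p = 0.315). Smad7 was higher in d3ko than in d3con by 1.68 (edgeR adjusted p = 0.0211, SE 0.35), but this call was lost in 9 of 16 alternatives, including the fits without d3con replicate 1, d3con replicate 3, d3ko replicate 1 or d3ko replicate 3 (adjusted p = 0.0663, 0.0880, 0.0650 and 0.0639). The direction of Smad7 was thus opposite to that of the secreted inhibitors in both comparisons, and among the d3ko libraries replicate 2 was the lowest both for Smad7 and for the pluripotency marker sum. The part of pluripotent cells in the Smad7 values was not tested.

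The inhibitors were also set against Nodal within each library, as a ratio of TPM that was formed with these results known. For d3ko against d3con an exact permutation test of this ratio gave p = 0.1. That is the smallest p possible with 3 libraries a group, so the test cannot decide. The sum of Lefty1 and Lefty2 was 13.2, 11.3 and 14.1 times Nodal in d3con and 3.56, 5.59 and 4.92 times Nodal in d3ko. It was 3.76 and 6.26 times Nodal in d0con and 4.65 and 3.77 times in d0ko. All d3con libraries were above all others, and d3ko lay in the day 0 range apart from its lowest library. The ratio of Lefty2 to Lefty1 did not separate the genotypes at day 3, at 1.85, 0.73 and 1.94 in d3con and at 2.24, 1.15 and 1.18 in d3ko. Tdgf1 was 2.06, 9.92 and 2.72 times Nodal in d3con and 8.92, 25.4 and 17.7 times Nodal in d3ko, with d3con replicate 2 again above its group.

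**Figure D4:**
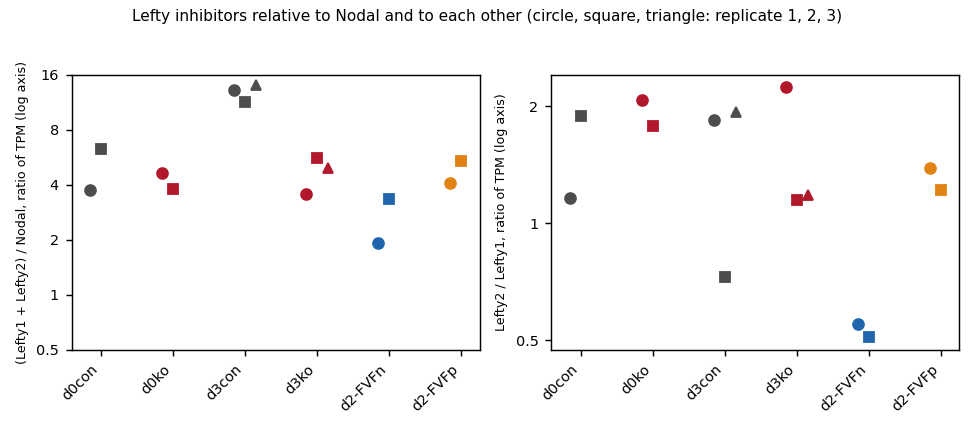
Ratio of TPM of Lefty1 plus Lefty2 to Nodal (left) and of Lefty2 to Lefty1 (right) in each library, on log axes, with marker shapes for replicate numbers. The d3con libraries lie at 11.3 to 14.1 on the left, above all other libraries, and the d2-FVFp libraries lie at 1.22 and 1.39 on the right against 0.51 and 0.55 in d2-FVFn.

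At day 0 none of the 9 genes differed between d0ko and d0con. In edgeR's quasi-likelihood test 0% of 13899 genes were called (0% higher and 0% lower), 195 genes and none of the 9 had an unadjusted p under 0.05, and DESeq2 called 1 gene, which was not among the 9. The log2 fold changes lay between -0.43 for Lefty1 (95% interval -1.23 to 0.36) and 0.44 for Acvr1b (-0.71 to 1.59). With 2 libraries a group a 2-fold difference still lay within the intervals of Gdf3, Tdgf1, Acvr1b and Lefty1. Of the 7 feeder cell markers, 5 had an unadjusted p under 0.05 at day 0 and their median log2 fold change was 2.65, higher in d0ko, and their part in these values was not tested.

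The interaction of genotype and day asks whether the change from day 0 to day 3 differed between ko and con. edgeR's quasi-likelihood test called 0% of genes (0% higher and 0% lower), so it showed no difference in the differentiation changes of the 9 genes. Foxa2, the targeted gene, was not called either (-7.68, edgeR adjusted p = 0.0544, SE 0.87). The absence of calls in this test therefore cannot decide the question for the 9 genes. An unadjusted p under 0.05 was reached by 1840 of 13899 genes and by 5 of the 9. The interaction was -2.16 for Lefty2 (edgeR adjusted p = 0.153, SE 0.47), -1.66 for Lefty1 (adjusted p = 0.195, SE 0.46), 3.40 for Gdf3 (adjusted p = 0.188, SE 0.93), 1.66 for Smad7 (adjusted p = 0.249, SE 0.54) and -0.65 for Nodal (adjusted p = 0.373, SE 0.29). DESeq2 called Lefty2, Gdf3 and Lefty1 (adjusted p = 0.00214, 0.00437 and 0.0283) and 2.93% of all genes. Without d3ko replicate 2 edgeR called 4 of the 9, Gdf3, Smad7, Lefty2 and Lefty1 (adjusted p = 0.000118, 0.00759, 0.0335 and 0.0430), and 8.10% of all genes. Without d3con replicate 2 it called Lefty2 (adjusted p = 0.0116).

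In the doxycycline line, where Foxa2 was induced in medium with LIF and serum, Lefty2 was at 37.2 and 55.0 TPM in d2-FVFn and at 136.2 and 149.0 TPM in d2-FVFp. It rose by 1.58 on the log2 scale (edgeR adjusted p = 0.00362, SE 0.19) and lay above d2-FVFn in both d2-FVFp libraries. Lefty1, at 67.3 and 108.7 TPM against 97.9 and 121.9 TPM, overlapped between the groups and changed by 0.27 (95% interval -0.27 to 0.82, edgeR adjusted p = 0.447). The ratio of Lefty2 to Lefty1 accordingly went from 0.55 and 0.51 to 1.39 and 1.22. As 1 summed feature they rose by 1.01 (edgeR adjusted p = 0.0183, SE 0.20).

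Tdgf1 was at 741.9 and 722.5 TPM in d2-FVFn and at 443.1 and 464.8 TPM in d2-FVFp, and Gdf3 was at 241.0 and 299.8 TPM against 178.8 and 195.3 TPM. Both were lower in every d2-FVFp library and passed the p threshold, but by less than 2-fold, with log2 fold changes of -0.74 for Tdgf1 (edgeR adjusted p = 0.00593, SE 0.10) and -0.58 for Gdf3 (edgeR adjusted p = 0.0317, SE 0.14). Nodal was at 54.8 and 49.2 TPM against 57.4 and 50.3 TPM, a log2 fold change of 0.00 (95% interval -0.36 to 0.36). Acvr1b, Acvr2b, Foxh1 and Smad7 had log2 fold changes of 0.66, -0.44, -0.12 and 0.16 and adjusted p of 0.196 to 0.570 in edgeR. The 95% interval lay within a 2-fold change for Nodal, Foxh1, Lefty1, Smad7, Acvr2b, Gdf3 and Tdgf1. Summed pluripotency markers, mostly Dppa5a, were 6384.7 and 7908.2 TPM in d2-FVFn and 4231.7 and 5757.7 TPM in d2-FVFp. Of the 6 only Klf4 was called, higher by 1.29, and the others had negative log2 fold changes. Nanog (-0.68, edgeR adjusted p = 0.0276) and Pou5f1 (-0.48, edgeR adjusted p = 0.0386) passed the p threshold by less than 2-fold. Of the 3 endoderm markers tested 2 were higher, where 6.96% of all genes were called higher and 1.47% lower. The part of such cells in these values was not tested.

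The mean levels were also ordered over all 6 groups. Nodal was highest in d3con with no overlap with the group below, and Tdgf1 was highest in d3ko with a range that overlapped with d0ko. Lefty1 and Lefty2 were highest in d3con with no overlap with the group below, and had their lowest mean in d2-FVFn. Gdf3 was highest in d2-FVFn, followed without overlap by d2-FVFp, whose range overlapped with d0con, and it was lowest in d3con. Foxh1, Acvr2b and Acvr1b were highest in d3con, but in each case the range overlapped with that of d3ko. Smad7 was highest in d0ko, with ranges overlapping down to d2-FVFp, and lowest in d3con. The doxycycline line was grown and sorted apart, and its levels are set beside the others without a test.

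The genes most like each member over the 14 libraries were found by Pearson's r of log2(TPM + 1) among 9741 genes with a mean of at least 5 TPM. The libraries fall into a few groups, so a high r describes a shared group pattern. Gdf3 was most like Zfp936, Dppa2 and Jade1 (r = 0.995, 0.994 and 0.993), of which Dppa2 is a gene of pluripotent cells. Smad7 was most like Tfcp2l1, Gpa33 and Cdyl2 (r = 0.974, 0.967 and 0.963), of which Tfcp2l1 is a transcription factor gene of naive pluripotent cells. Foxh1 was most like Greb1 (r = 0.990), Acvr2b like Bcl7a (0.976) and Acvr1b like Iah1 and Creb3l1 (0.963 each). The closest genes were less alike for Lefty1 (Sh3bp4, r = 0.954), Lefty2 (Ackr3, 0.944), Tdgf1 (Upp1, 0.941) and Nodal (Epb4.1l1, 0.925).

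Of the 30 other pathway genes, 29 were tested in the differentiation series and 26 in the doxycycline series. The untested receptor gene Acvr1c was at 0.01 TPM in 1 library and at 0 in all others. From d0con to d3con 14 rose and 2 fell, from d0ko to d3ko 8 rose and none fell, and in d3ko against d3con 1 was higher and 3 were lower. With doxycycline 4 rose and 1 fell, and none was called at day 0 or in the interaction. The shares called over all genes were 35.2% (20.6% higher and 14.6% lower), 17.3% (11.6% and 5.72%), 8.26% (4.75% and 3.51%) and 8.43% (6.96% and 1.47%) in these comparisons. With 1 higher and 3 lower of 29 between the genotypes, nothing is read from these counts about the list.

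All 6 target transcription factor genes rose from d0con to d3con and 5 of 6 from d0ko to d3ko, where 20.6% and 11.6% of all genes were called higher. Mixl1, a homeobox gene of the primitive streak, had 0.19 and 0.38 TPM in d0con, 0.25 and 0.31 TPM in d0ko, 44.1 to 59.97 TPM in d3con and 32.5 to 104.7 TPM in d3ko. It changed by 7.29 in con (edgeR adjusted p = 0.000150, SE 0.62) and by 7.80 in ko (adjusted p = 0.000486, SE 0.62). Gsc, a homeobox gene of the anterior streak, was at 119.8 to 165.9 TPM in d3con and 9.09 to 52.7 TPM in d3ko, lower by a log2 fold change of -2.27 (edgeR adjusted p = 0.0252, SE 0.51). Otx2, a homeobox gene of anterior endoderm and neural tissue, was at 216.5 to 443.9 TPM in d3con and at 29.9 to 128.9 TPM in d3ko, lower by -2.19 (edgeR adjusted p = 0.0257, SE 0.49). The d3con and d3ko libraries did not overlap for Gsc or Otx2, as for Lefty1 and Lefty2. In the doxycycline line Otx2 fell by 1.06 while Lhx1 rose by 3.13 and Eomes by 1.63 (edgeR adjusted p = 0.0140, 0.0223 and 0.0194), with Lhx1 at no more than 2.35 TPM and Eomes at no more than 3.23 TPM.

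Among the other inhibitors 3 of 11 rose from d0con to d3con and 1 from d0ko to d3ko, counts near the 20.6% and 11.6% of all genes called higher. None was called between the genotypes at day 3. Cer1, a secreted blocker of Nodal, was listed at 0 in both d0con libraries and was at 544.2 to 548.2 TPM in d3con, against 1.22, 56.4 and 1.87 TPM in d3ko. No fold is given against the libraries at 0. In d3ko against d3con the libraries did not overlap and the log2 fold change was -4.82 (edgeR adjusted p = 0.0501), just over the p threshold and so not called, with replicate 2 far above the other d3ko libraries. Pmepa1 and Bambi, which dampen signalling at Smads and receptors, rose by 1.5 and 1.07 from d0con to d3con (edgeR adjusted p = 0.0103 and 0.00454). With doxycycline Cer1 rose from 0 and 0.17 TPM in d2-FVFn to 2.03 and 1.59 TPM in d2-FVFp (edgeR adjusted p = 0.0183).

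Among the other receptors and co-receptors both tested genes rose from d0con to d3con, where 20.6% of all genes were called higher. Cfc1, the second co-receptor of the Cripto family, had 1.13 and 1.35 TPM in d0con, 0.35 and 2.04 TPM in d0ko, then 273.3 to 452.9 TPM in d3con and 8.0 to 81.05 TPM in d3ko. It was lower in d3ko than in d3con by a log2 fold change of -3.34 (edgeR adjusted p = 0.0237, SE 0.73), whereas Tdgf1 was not called. A share of 27.8% of Cfc1 exon bases lie antisense to Prss40, so its reads are uncertain to that extent. Acvr2a, a type II receptor gene, rose by 1.36 from d0con to d3con (edgeR adjusted p = 0.00336).

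Among the other ligands and their convertases 1 of 5 rose and 2 fell from d0con to d3con, where 20.6% of all genes were called higher and 14.6% lower. Inhbb, which encodes an Activin subunit, fell by 5.87 (edgeR adjusted p = 0.00248, SE 1.1). Its d0con libraries were far apart at 12.2 and 4.07 TPM, and d3con was near the floor at 0.04 to 0.26 TPM. Pcsk6 and Furin encode proteases that cleave pro-Nodal, and they moved in opposite directions from d0con to d3con. In no other comparison were both called. Pcsk6 was at 6.89 and 7.29 TPM in d0con. It was at 7.43, 0.98 and 6.42 TPM in d3ko and 0.56 to 1.02 TPM in d3con, with 1 d3ko library inside the d3con range. It fell by 3.48 from d0con to d3con (edgeR adjusted p = 0.00301) and was higher in d3ko than in d3con by 2.77 (edgeR adjusted p = 0.0271). Furin rose by 1.81 in con, 1.25 in ko and 2.14 with doxycycline (edgeR adjusted p = 0.00406, 0.0322 and 0.00277). Of the 5 Smads and nuclear partners, Smad3 and Drap1 rose from d0con to d3con by 1.68 and 1.07 (edgeR adjusted p = 0.00170 and 0.00928), and none was called in the other comparisons.

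**Figure D5:**
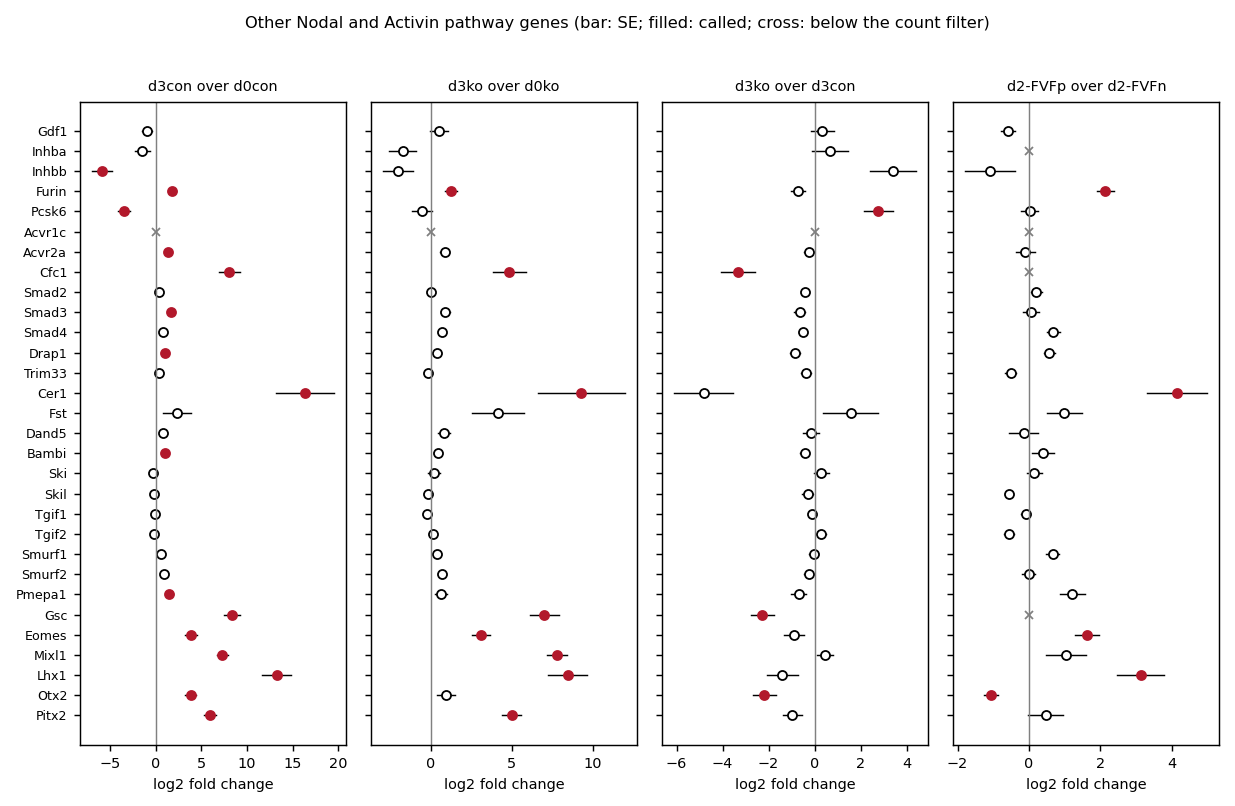
Log2 fold change (points, with SE as lines) of the 30 other pathway genes in 4 comparisons, filled where called, with crosses for genes below the count filter and an axis of its own for each comparison. The 6 target transcription factor genes, at the bottom, lie at 3.84 to 13.26 in d3con against d0con, where the values of Cer1 and Lhx1 rest on day 0 libraries at or near 0.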

How the data were processed

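RNA of sorted mouse cells was measured in 14 libraries of 6 groups, which were taken from the sample titles and genotype labels. The authors aligned single-end reads to mm10 (GRCm38) with STAR and quantified each library with RSEM. The versions were not given in the sources used here. The expected counts that the authors deposited estimate how many reads came from each gene, with reads of several possible genes shared among them and no scaling for depth. Their deposited TPM values were scaled by the authors for gene length and library total. The kit is not described as keeping strand, so antisense overlaps could not be told apart. No exon of the 9 genes overlapped another gene, but among the 30 other pathway genes this held for 100% of Gdf1 exon bases (Cers1, same strand), 56.7% of those of Tgif2, 27.8% of Cfc1 and 7.84% of Acvr2a, so their counts are uncertain.

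Expected counts were rounded to whole numbers, scaled with TMM and tested with edgeR 4.0.16 (R 4.3.3), with Benjamini-Hochberg adjustment over all genes at 1 CPM or more in at least 2 libraries of a fit (13899 genes in the 10 day 0 and day 3 libraries, 12943 in the 4 doxycycline libraries). A call needed an adjusted p under 0.05 and a log2 fold change beyond 1 in either direction. DESeq2 1.42.0 was an alternative. The fits were tested on simulated data. Totals of 14142788 to 27278237 expected counts set the precision, and Acvr1b had the fewest counts of the 9 genes in most libraries. In d3con replicates 1 and 3 Gdf3 had fewer, at 113 and 133 counts against 158 and 145.

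Genes named were the 9, Foxa2, up to 3 called pathway genes for each role and comparison, and the genes most like each of the 9. These genes, the 30 pathway genes and the pluripotency, endoderm, primitive streak and mesoderm, and fibroblast feeder markers were chosen with earlier results of these data known. T and Sox17 were singled out after their values were seen. Positions are from RefSeq (GRCm38), which matched all 65 listed genes, and shared sequence was counted in GENCODE transcripts.

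Clone names recorded with the deposited tables tie libraries of the same number at day 0 and day 3 of a genotype to 1 clone, so the replicate block pairs them. Their deviations from the group means correlated at -0.04 to 0.06 over genes.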

Additional observations from a re-analysis of the deposited data

How the results depend on the processing

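With 2 or 3 libraries a group and 2 clones a genotype, small changes could not be shown, and leaving out 1 library of a pair assumes that the other varies like the rest. Of 765 single-gene values under alternatives, 672 kept direction and side of the threshold, 44 lost a call, 17 gained one and 32 changed sign, all of the last from values of at most 0.27. The cause was not tested unless fewer samples are named. From d0con to d3con 5 higher calls became 1 with DESeq2 on the pair of groups against a 2-fold change, which was added after seeing the data, and 3 to 5 without single libraries, with 2 to 3 lower. From d0ko to d3ko 1 higher became 2 with DESeq2 and 0 in the fit of only the pair, the 2-fold test and without 75-base libraries. Without single libraries it was 0 to 2. The 1 lower became 0 in the replicate block, those 3 settings and with clones summed, and 0 to 1 without single libraries. In d3ko against d3con 2 higher became 1 in the replicate block and the 2-fold test and 0 in the fit of only the pair, without 75-base libraries and with clones summed, and 0 to 3 without single libraries. The 2 lower became 1 in the fit of only the pair and the 2-fold test, and stayed at 2 without single libraries. They became 0 without 75-base libraries and with clones summed, both of which have fewer samples. Over all genes the share called there fell from 8.26% to 5.87% in the replicate block and 0.496% in the fit of only the pair. It was 1.73% in the 2-fold test, 0.00734% without 75-base libraries, 0.00732% with clones summed and 0.579% to 16.3% without single libraries. From d0ko to d3ko 17.3% became 10.1% in the fit of only the pair, 2.26% in the 2-fold test and 14.2% without 75-base libraries. It was 17.7% in the replicate block and 17.1% with clones summed. In the interaction 0 higher and 0 lower became 1 and 2 with DESeq2, 2 and 1 without both day 3 libraries numbered 2 (added after seeing the data) and 0 to 2 in each direction without single libraries. With doxycycline 1 higher became 2 with the Lefty counts summed, where the 1 summed feature counts for both genes and Lefty1 alone gained no call, and 0 in the 2-fold test. Between genotypes at day 3 and between sorts the labels tie libraries by replicate number alone, although both day 3 libraries numbered 1 appear to share a read length (deviations correlated at -0.01 to 0.54 and at 0.29). There the replicate block ended only the call of Smad7 in d3ko (1.64, edgeR adjusted p = 0.05). In the comparisons of day 3 with day 0 it ended only that of Gdf3 in ko, and the clone block ended none.

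Signs turned for Lefty1 in ko (-0.20 summed with Lefty2) and at day 0 for Acvr2b (-0.01 with median-of-ratios scaling, without the filter and in the 2-fold test, 0.00 in the replicate block, -0.02 with DESeq2) and Smad7 (0.00 with that scaling, without the filter and in the 2-fold test, -0.01 with DESeq2). They turned with doxycycline for Nodal (0.00 with that scaling, -0.01 without the filter, with DESeq2 and in the 2-fold test). Without single libraries, values that turned ranged from -0.02 to 0.47 for Lefty1 and -0.11 to 0.53 for Tdgf1 from d0ko to d3ko, and from -0.47 to 0.17 for Acvr1b in d3ko against d3con. At day 0 they ranged from -0.21 to 0.19 for Acvr2b, -0.34 to 0.21 for Lefty2, -0.34 to 0.36 for Nodal, -0.05 to 0.08 for Smad7 and -0.09 to 0.18 for Tdgf1. With doxycycline they ranged from -0.21 to 0.01 for Foxh1, -0.01 to 0.67 for Lefty1 and -0.08 to 0.11 for Nodal.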

Other observations

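The change from day 0 to day 3 was also read within each clone, as the difference in log2(TPM + 1) between a day 3 library and the day 0 library of its clone. These values have no test, since clones C59 and C9 share 1 day 0 library between 2 day 3 libraries. Lefty1 differed by 1.49 and 1.99 in clone C59 and 2.43 in C63, both con, and by -0.69 and 0.48 in C9 and 0.83 in C17, both ko. Lefty2 differed by 2.15 and 2.72 in C59 and 1.06 in C63, and by -0.58 and -0.34 in C9 and 0.21 in C17. No ko library reached the lowest con library for either gene.

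For Gdf3 and Smad7 the ko clones stood apart from each other. Gdf3 differed by -1.46 and -1.11 in C9 and by -3.97 in C17, against -5.05 to -4.60 in the con clones. Smad7 differed by -0.01 and 0.10 in C9 and by -1.39 in C17, against -2.18 to -1.65 in the con clones. C17 had a single day 3 library, so clone and library cannot be told apart there. Foxh1 was higher at day 3 in every clone, by 0.72 to 1.73, as was Acvr2b, by 0.80 to 1.52, and Acvr1b, by 0.52 to 1.49. Tdgf1 differed by -2.11 and -1.26 in C59 and 0.26 in C63, and by -0.72 and 0.40 in C9 and 1.01 in C17.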
